A study of Mus musculus with 16 samples.

Results

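The cyclins, the cyclin-dependent kinases (CDKs) and the CDK inhibitors were followed across the polysome gradients of a mouse hepatocyte line with and without an shRNA against eIF6. Members were chosen by gene name: cyclins A to F, H, K and T, every gene named Cdk followed by a number, and the Cdkn1 and Cdkn2 inhibitors, with 1 inhibitor left out by the same rule. This gave 40 of the 30214 gene names on the array, and 37 of them passed the filter on low signal. Ccna1, Ccnb3 and Ccne2, cyclins of the A, B and E families, were not well above background and have no value here. By class there were 6 CDK inhibitors, 8 cyclins and CDKs of the G1 phase, 7 of the S, G2 and M phases, 11 of transcription and 8 other CDKs.

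All cells were AML12, a non-tumourigenic hepatocyte line from a mouse that carries a human TGF-alpha transgene. A lentiviral vector gave them an shRNA that doxycycline switches on, directed against eIF6 in one set and scrambled in the other, and carriers were selected with puromycin. All received doxycycline for 48 h and then insulin for 1 h. The insulin dose is 100 nM in the sample descriptions and in the methods, but the labels also give the same figure in mM, and no array is without insulin or without doxycycline. Each lysate was separated on a sucrose gradient into polysomal RNA, carried by several ribosomes, and subpolysomal RNA, which holds the lighter fractions. This made 4 groups of 4 one-colour arrays: scramble subpolysomal, scramble polysomal, eIF6 shRNA subpolysomal and eIF6 shRNA polysomal. The methods list a pair of antisense sequences against eIF6 without saying which one these cells carried. The labels call the arrays replicate experiments, and the p-values measure the spread between them.

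Cyclins are proteins that switch on a CDK partner, and the pairs follow each other through the cell cycle. D-type cyclins with Cdk4 or Cdk6 start the phosphorylation of the retinoblastoma protein in G1, cyclin E with Cdk2 completes it, cyclin A acts in S and G2, and cyclin B with Cdk1 drives mitosis. Inhibitors of the INK4 type (Cdkn2a to Cdkn2d) block Cdk4 and Cdk6, and those of the Cip/Kip type (Cdkn1b and Cdkn1c) bind cyclin-CDK pairs more broadly. Another set of cyclins and CDKs does not time the cycle but acts on RNA polymerase II. In adult liver most hepatocytes are quiescent, and cyclin D1 is known for its rise when they re-enter the cycle. eIF6 is an initiation factor that keeps the large ribosomal subunit from joining the small one.

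Signals are given as log2 of the quantile-normalized intensity, averaged over the probes of a gene, and every difference below is a difference of such log2 signals. The mean of the eIF6 shRNA arrays minus that of the scramble arrays is called the polysomal change in one fraction and the subpolysomal change in the other. Subtracting the second from the first gives the change in translational efficiency. Calls were made where the adjusted p was below 0.05, from the linear models of limma with Benjamini-Hochberg adjustment over all 19365 genes tested. Signals of different genes are not compared, since probes differ in brightness. Between 20177 and 24953 probes per array were well above background, no spot was saturated, and the correlation of log2 signals between arrays was 0.944 to 0.995. The mRNA that the shRNA targets, Eif6, fell by 1.05 (SE 0.079, adjusted p = 1.45e-07) on polysomes, and its subpolysomal difference was 0.015 (adjusted p = 0.917).

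Some markers of hepatocytes and of other cell types moved with the shRNA. Among all genes tested, 10.7% were called lower and 11.1% higher on polysomes. In subpolysomal RNA the shares of all genes were 12.4% and 11.9%. Of 8 fibroblast and stellate cell genes, 7 fell on polysomes (all but Vim) and 6 in subpolysomal RNA, with median changes of -3.03 and -1.39. Their mean log2 signal was 11.21 to 11.43 on the scramble subpolysomal arrays and 11.36 to 12.21 on the scramble polysomal arrays, against 9.78 to 10.25 and 8.66 to 9.60 in eIF6 shRNA cells. Of 12 hepatocyte genes, all were measured, and 3 rose on polysomes, namely Ttr (1.15), Afp (1.26) and Tat (0.91), with 2 higher in subpolysomal RNA. Their mean ran from 8.79 to 9.28 over the scramble arrays and from 9.05 to 9.59 over the eIF6 shRNA arrays. Of 5 macrophage gene names listed, 4 were on the array, and Csf1r fell (-1.67 on polysomes and -1.17 below them). The endothelial genes Cdh5 and Tek were not above background, and no endothelial or cholangiocyte gene was called. In translational efficiency, 2 of the 8 fibroblast and stellate cell genes were called lower, against 1.11% of all genes. The median efficiency change over the 8 was -1.32. The part of these shifts in the changes of the cell cycle genes was not tested, and in such bulk RNA fewer cells of a type and less RNA per cell cannot be told apart.

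On polysomes 9 of the 37 members fell in eIF6 shRNA cells and 1 rose. Among all genes tested, 10.7% were called lower and 11.1% higher, so the share of members called lower (24.3%) lay above that background and the share called higher (2.7%) below it. The members that fell were the INK4 inhibitors Cdkn2a and Cdkn2b, the D-type cyclin Ccnd2, the cyclins Ccna2 and Ccnf, the kinases Cdk14 and Cdk20, and Cdk9 and Ccnk of transcription. Cdk18 was the one that rose. The median polysomal change was -0.15 over the members and 0.016 over all genes, and 29 of the 37 values lay below 0. In 9 members the arrays of the shRNAs did not overlap on polysomes, against 22.4% of all genes.

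In subpolysomal RNA 12 members fell and none rose, where 12.4% of all genes were called lower and 11.9% higher. At an unadjusted p under 0.05, 1 member was higher there. The median was -0.22 over the members and 0.025 over all genes, and 28 of 37 values were below 0. The arrays of the shRNAs did not overlap in 17 members, against 31.6% of all genes. Members lower in both fractions were Cdkn2a, Cdkn2b, Ccna2, Ccnf, Cdk14 and Cdk20. Another 3 were called lower on polysomes alone (Ccnd2, Cdk9 and Ccnk), and 6 in subpolysomal RNA alone (Cdkn1b, Ccne1, Ccnd3, Cdk1, Cdk13 and Ccnt1), while 21 were called in neither fraction. Of these, the call of Cdk1 rested on a probe that was not above background in subpolysomal RNA, and Ccne1 was lower in both fractions by its brighter probe, as given below. Being called in one fraction and not in the other is not a difference between fractions; that difference is the change in translational efficiency, given further on. When all arrays were scaled to 7 spike-in probes instead, the median change of all genes became -0.47 on polysomes and -0.23 below them, and 2 members were called lower on polysomes and 1 in subpolysomal RNA. Relative to those medians, the 10 members called on polysomes and the 12 called in subpolysomal RNA lay on the same side as before. That scaling shifts all genes of an array by the same amount. The side of the median therefore does not depend on the spike-in probes and lends the calls no support. The share of all genes called with that scaling was not counted.

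**Figure D1:**
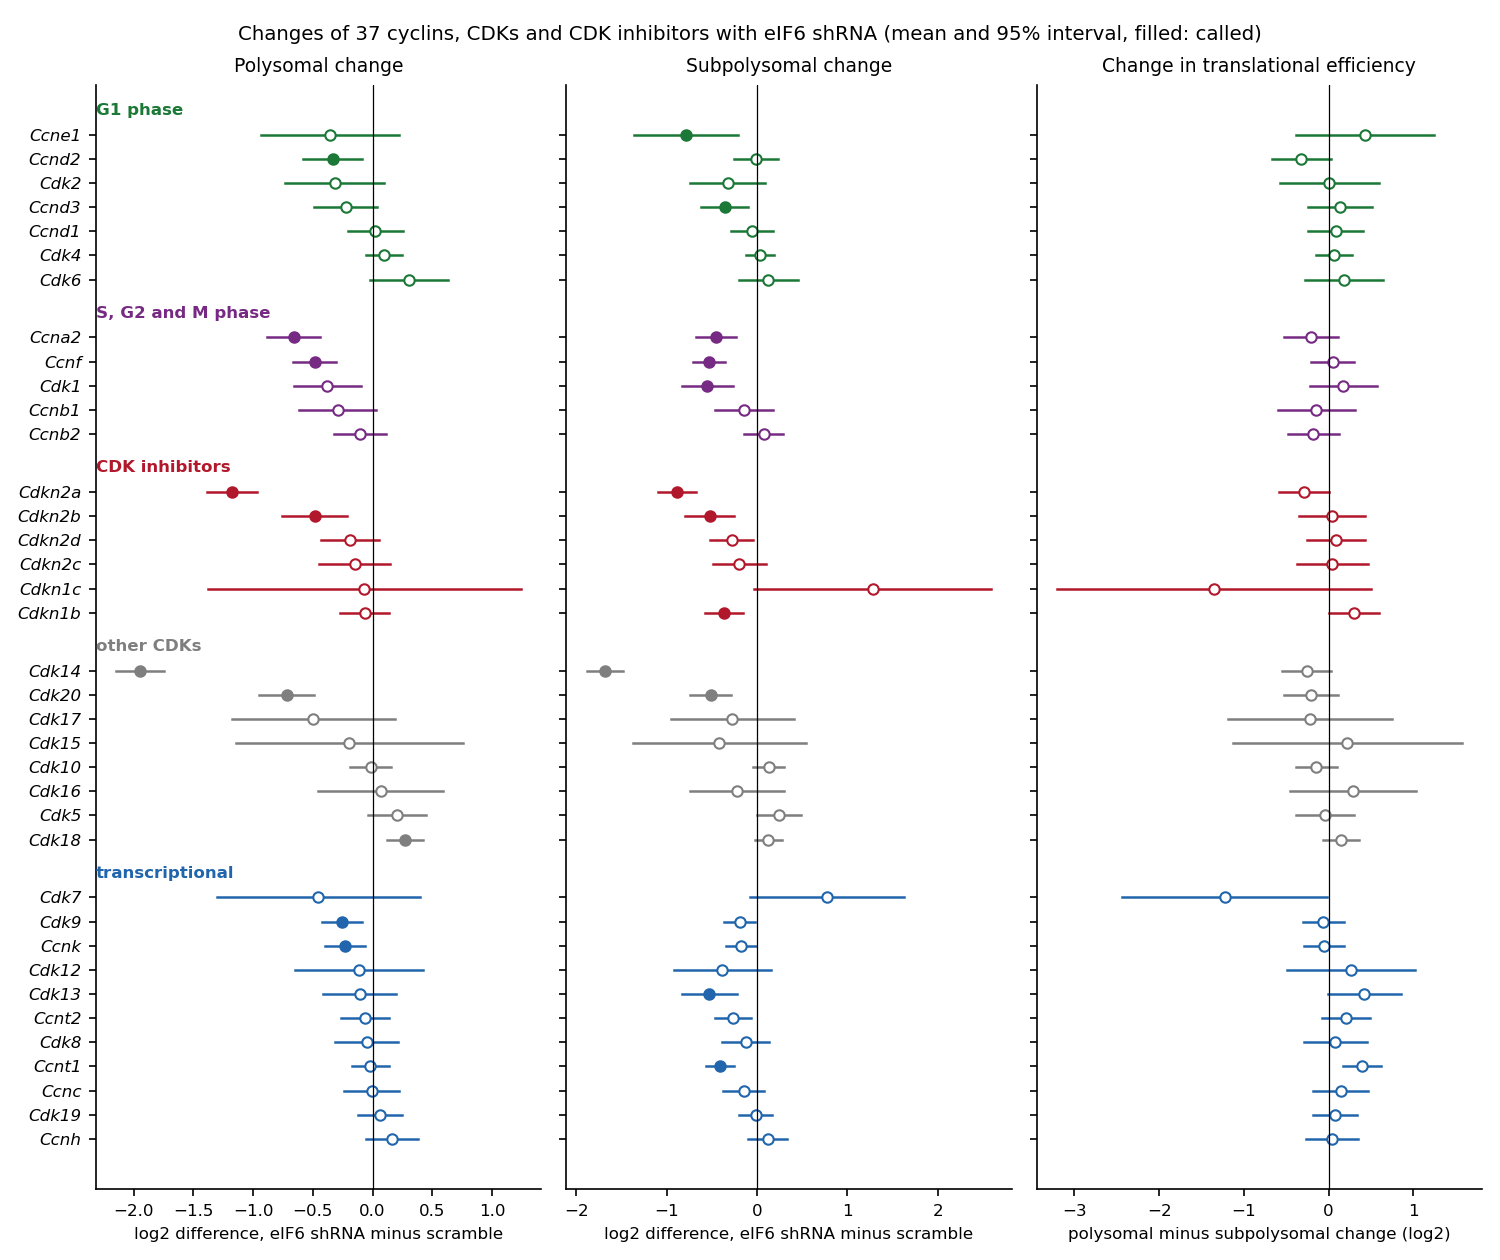
Change of each measured cyclin, CDK and CDK inhibitor in eIF6 shRNA against scramble cells, in log2 units, for polysomal RNA, subpolysomal RNA and translational efficiency, grouped by class. Points are means from 4 arrays a group, bars are 95% confidence intervals, and filled points are called genes; the 3 panels have different horizontal scales. Cdk14 lies farthest to the left in the first panel at -1.94, and no point is filled in the panel of translational efficiency.

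Of the 6 inhibitors, Cdkn2a and Cdkn2b fell in both fractions and Cdkn1b in subpolysomal RNA. Cdkn2a encodes an inhibitor of Cdk4 and Cdk6 and, from another reading frame, Arf, which stabilizes p53. Its 2 probes lie on chromosome 4 of mm9 (88920405 to 88920464 and 88920543 to 88920602, minus strand), and the files do not say which of its transcripts they separate. Its log2 signal on polysomes was 11.77, 11.58, 11.78 and 11.42 on the 4 scramble arrays and 10.43, 10.41, 10.66 and 10.34 on the eIF6 shRNA arrays. In subpolysomal RNA it was 10.65, 10.51, 10.65 and 10.48 in scramble and 9.69, 9.58, 9.77 and 9.72 in eIF6 shRNA cells. Every eIF6 shRNA array lay below every scramble array in both fractions. The polysomal signal fell by 1.17 (SE 0.098, 2.26-fold lower, adjusted p = 4.6e-07) and the subpolysomal signal fell by 0.88 (1.85-fold lower, adjusted p = 1.15e-05). The separate probes gave -1.09 and -1.26 on polysomes.

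Cdkn2b, the neighbouring INK4 gene, changed less. It read 8.55, 8.53, 8.73 and 8.19 on the scramble and 8.23, 8.11, 8.0 and 7.72 on the eIF6 shRNA polysomal arrays. These groups overlapped, since the lowest scramble array was just under the highest eIF6 shRNA array. In subpolysomal RNA it read 7.40, 7.36, 7.24 and 7.62 against 6.83, 6.85, 6.96 and 6.89, without overlap. The polysomal signal fell by 0.49 (SE 0.13, 1.4-fold lower, adjusted p = 0.0124) and the subpolysomal signal fell by 0.52 (adjusted p = 0.00772). Its probes differed on polysomes, at -0.81 and -0.16. The call on polysomes was lost when the arrays numbered 2 or those numbered 3 were left out, and the subpolysomal call without those numbered 1 or 2.

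Cdkn1b, a Cip/Kip inhibitor of Cdk2 complexes that is abundant in resting cells, read 7.72, 7.59, 7.87 and 7.57 in scramble and 7.71, 7.48, 7.53 and 7.77 in eIF6 shRNA polysomal RNA. There the groups lay on top of each other, with a difference of -0.07 (adjusted p = 0.719). In subpolysomal RNA it read 8.75, 8.65, 8.61 and 8.79 against 8.37, 8.15, 8.45 and 8.36, again without overlap, and it fell by 0.37 (SE 0.097, adjusted p = 0.0127). That call was lost with the brighter of its 2 probes alone (-0.29, adjusted p = 0.0542), with spike-in scaling, and without the arrays numbered 1 or 2. The INK4 inhibitors Cdkn2c and Cdkn2d differed by -0.15 and -0.19 on polysomes and by -0.20 and -0.28 in subpolysomal RNA, none of them called. Cdkn1c was not well above background on any scramble subpolysomal array, so no fold is given for its subpolysomal change, and its polysomal difference was -0.07 (adjusted p = 0.96).

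Among the G1 genes the partners Ccnd1 and Cdk4 were not called in either fraction. Cyclin D1 read 15.50, 15.48, 15.24 and 15.83 on the scramble and 15.47, 15.52, 15.46 and 15.71 on the eIF6 shRNA polysomal arrays. The subpolysomal values were 14.81, 14.93, 14.88 and 14.71 against 14.80, 14.75, 14.84 and 14.71. The groups overlapped in both fractions. The polysomal difference was 0.02 with a 95% interval of -0.21 to 0.26 (adjusted p = 0.919), and the subpolysomal difference was -0.06 (adjusted p = 0.751). Its probe covers 152116202 to 152116261 on chromosome 7 of mm9.

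Cdk4 read 14.95, 15.05, 15.03 and 14.93 on the scramble and 15.04, 15.22, 15.10 and 14.98 on the eIF6 shRNA polysomal arrays. In subpolysomal RNA its arrays lay between 14.41 and 14.56 in all 8 cases. The polysomal difference was 0.09 with an interval of -0.06 to 0.25 (adjusted p = 0.423) and the subpolysomal difference 0.03 (adjusted p = 0.787). Cdk6, the other partner of the D-type cyclins, had a polysomal difference of 0.31 (adjusted p = 0.184). Cdk2, the partner of cyclins E and A, had differences of -0.32 and -0.33 in the 2 fractions and was not called.

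Cyclin D2 fell on polysomes. It read 12.62, 12.80, 12.73 and 12.55 in scramble and 12.47, 12.32, 12.13 and 12.44 in eIF6 shRNA cells, so that every eIF6 shRNA array was below every scramble array. The fall was 0.33 (SE 0.11), with an adjusted p of 0.0492 that lay close to the threshold, and the call held in 15 of 34 alternative settings. Subpolysomal RNA gave 10.91, 11.05, 11.07 and 11.30 against 11.15, 11.10, 11.22 and 10.80, a difference of -0.01. Cyclin D3 fell in subpolysomal RNA, from 12.50, 12.41, 12.45 and 12.83 to 12.16, 12.23, 12.13 and 12.23 (change -0.36, adjusted p = 0.0466), and its polysomal difference was -0.22 (adjusted p = 0.242). Cyclin E1 read 10.17, 8.75, 8.52 and 9.05 on the scramble and 8.46, 8.46, 8.23 and 8.18 on the eIF6 shRNA subpolysomal arrays (change -0.79, adjusted p = 0.0465). Its first scramble array stood above all the others, the adjusted p without it was above the threshold, and the call held in 13 of 34 alternative settings. That of Ccnd3 held in 15 of 34.

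The 2 probes of cyclin E1 differed in brightness and spread. The brighter one (mean log2 signal 11.66, SE of a change 0.097) gave -0.43 in subpolysomal RNA (adjusted p = 0.0041) and -0.47 on polysomes (adjusted p = 0.00194), both called. The dimmer one (mean log2 signal 6.39, SE 0.54) gave -1.15 and -0.24. The mean of both probes had a polysomal difference of -0.36 (adjusted p = 0.421), so its call in subpolysomal RNA alone depended on averaging in the dimmer probe.

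Of the 5 measured S, G2 and M genes, Ccna2 and Ccnf fell in both fractions, while Ccnb1 and Ccnb2 were not called. Cdk1 was called in subpolysomal RNA, but not by the probe that was above background there. Genes of these phases are known to share promoter elements: the cell cycle genes homology region (CHR, TTTGAA) and the CCAAT box. The stretches before the start sites of Ccnf, which fell, of Ccnb1 and Ccnb2, which did not pass the test, and of Cdk1, the partner of the B cyclins, are therefore printed together. Each is 180 bases on the minus strand of GRCm38.p6 (RefSeq), from chr17:24251410-24251589, chr10:69352913-69353092, chr13:100786487-100786666 and chr9:70421555-70421734 in the order below. Capitals mark the letters TTTGAA and CCAAT or their reverse complements, and the last base lies just before the start of transcription.
Ccnf: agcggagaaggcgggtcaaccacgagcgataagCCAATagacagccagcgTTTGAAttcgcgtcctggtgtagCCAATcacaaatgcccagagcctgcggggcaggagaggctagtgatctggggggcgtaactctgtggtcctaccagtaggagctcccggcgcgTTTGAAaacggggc
Cdk1: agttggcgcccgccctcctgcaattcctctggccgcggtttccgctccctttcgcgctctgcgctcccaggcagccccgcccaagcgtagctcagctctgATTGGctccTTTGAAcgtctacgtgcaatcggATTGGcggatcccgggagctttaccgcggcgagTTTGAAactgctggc
Ccnb1: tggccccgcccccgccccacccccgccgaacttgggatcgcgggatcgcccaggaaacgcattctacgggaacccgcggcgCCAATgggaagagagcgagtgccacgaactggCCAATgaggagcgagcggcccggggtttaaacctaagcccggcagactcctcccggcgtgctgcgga
Ccnb2: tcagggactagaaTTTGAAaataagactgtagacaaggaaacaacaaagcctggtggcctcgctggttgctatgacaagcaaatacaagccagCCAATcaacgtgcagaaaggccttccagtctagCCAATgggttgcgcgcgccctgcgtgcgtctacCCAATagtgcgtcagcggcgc

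Ccnf holds TTTGAA at 130 and 14 bases before its start and CCAAT at 147 and again between them. Cdk1 holds TTTGAA at 71 and 15, and CCAAT at 208, 80 and 48, of which the farthest is outside the printed stretch. Ccnb2 has TTTGAA at 167 and CCAAT at 87, 54 and 21. Of these exact letters, Ccnb1 has only CCAAT in the searched bases, at 99 and 67. In the 250 bases before the start, searched on both strands, TTTGAA occurs in 16% of 32851 RefSeq promoters, CCAAT in 33.8% and both in 5.55%. Of the 31 members whose promoter was in the table, 5 held TTTGAA (Ccnb2, Ccnf, Cdk1, Cdk16 and Cdkn2b), 16 held CCAAT and 4 held both (Ccnb2, Ccnf, Cdk1 and Cdk16). The 31 members had 35 promoters. A member was counted if any of its promoters held the letters, whereas the shares above are per promoter. Cdk14, Cdk20 and Cdkn2a held neither of these letters there. Both runs of letters stood before Ccnf, which was called in both fractions, and before Ccnb2, which was called in neither. Bases after the start and variants of these letters were not searched, so an element of that kind would be missed. A link between promoter letters and the changes was not tested. Ccna2 had no entry.

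Cyclin A2, needed for DNA replication and for entry into mitosis, read 13.32, 13.18, 13.04 and 13.41 on the scramble and 12.58, 12.72, 12.31 and 12.70 on the eIF6 shRNA polysomal arrays. Its subpolysomal signal was 12.72, 12.61, 12.61 and 12.52 against 12.16, 12.05, 12.25 and 12.20. All eIF6 shRNA arrays were below all scramble arrays in each fraction. The polysomal signal fell by 0.66 (SE 0.10, 1.58-fold lower, adjusted p = 0.000262) and the subpolysomal signal fell by 0.45 (adjusted p = 0.00532), a call lost without the arrays numbered 1 or 2. Its one probe lies on chromosome 3 of mm9 at 36463978 to 36464037.

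Cyclin F does not activate a CDK but brings substrates to a ubiquitin ligase in G2. It read 9.80, 9.66, 9.78 and 9.64 on the scramble and 9.20, 9.10, 9.36 and 9.28 on the eIF6 shRNA polysomal arrays. The subpolysomal arrays read 10.35, 10.38, 10.21 and 10.23 against 9.83, 9.63, 9.88 and 9.70. Again no array of one shRNA crossed into the other. The falls were 0.48 on polysomes (log2 change -0.48, SE 0.083, adjusted p = 0.000535) and 0.53 in subpolysomal RNA (log2 change -0.53, adjusted p = 0.000269), nearly the same size.

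Cyclin B1, the mitotic partner of Cdk1, read 9.57, 9.53, 9.54 and 10.13 in scramble and 9.16, 9.20, 9.64 and 9.61 in eIF6 shRNA polysomal RNA. The groups overlapped, and the difference was -0.29 (adjusted p = 0.208). Below the polysomes it read 9.44, 9.26, 9.45 and 9.65 against 9.27, 9.24, 9.45 and 9.25 (difference -0.15, adjusted p = 0.53). Cyclin B2 differed by -0.10 and 0.07 in the 2 fractions (adjusted p = 0.549 and 0.647). Cdk1 itself was dim, with mean signals of 5.05 ± 0.17 and 4.67 ± 0.23 (SD, n = 4) on scramble and eIF6 shRNA polysomes. Its polysomal difference of -0.38 was not called (adjusted p = 0.0519) but passed the threshold in 7 of 34 alternative settings, among them the fit with the replicate number as a block. Its subpolysomal value was -0.55 (adjusted p = 0.00642), an average with a probe that was well above background on 0 of the 8 subpolysomal arrays (-0.94). The probe detected on all arrays gave -0.16 (adjusted p = 0.581).

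**Figure D2:**
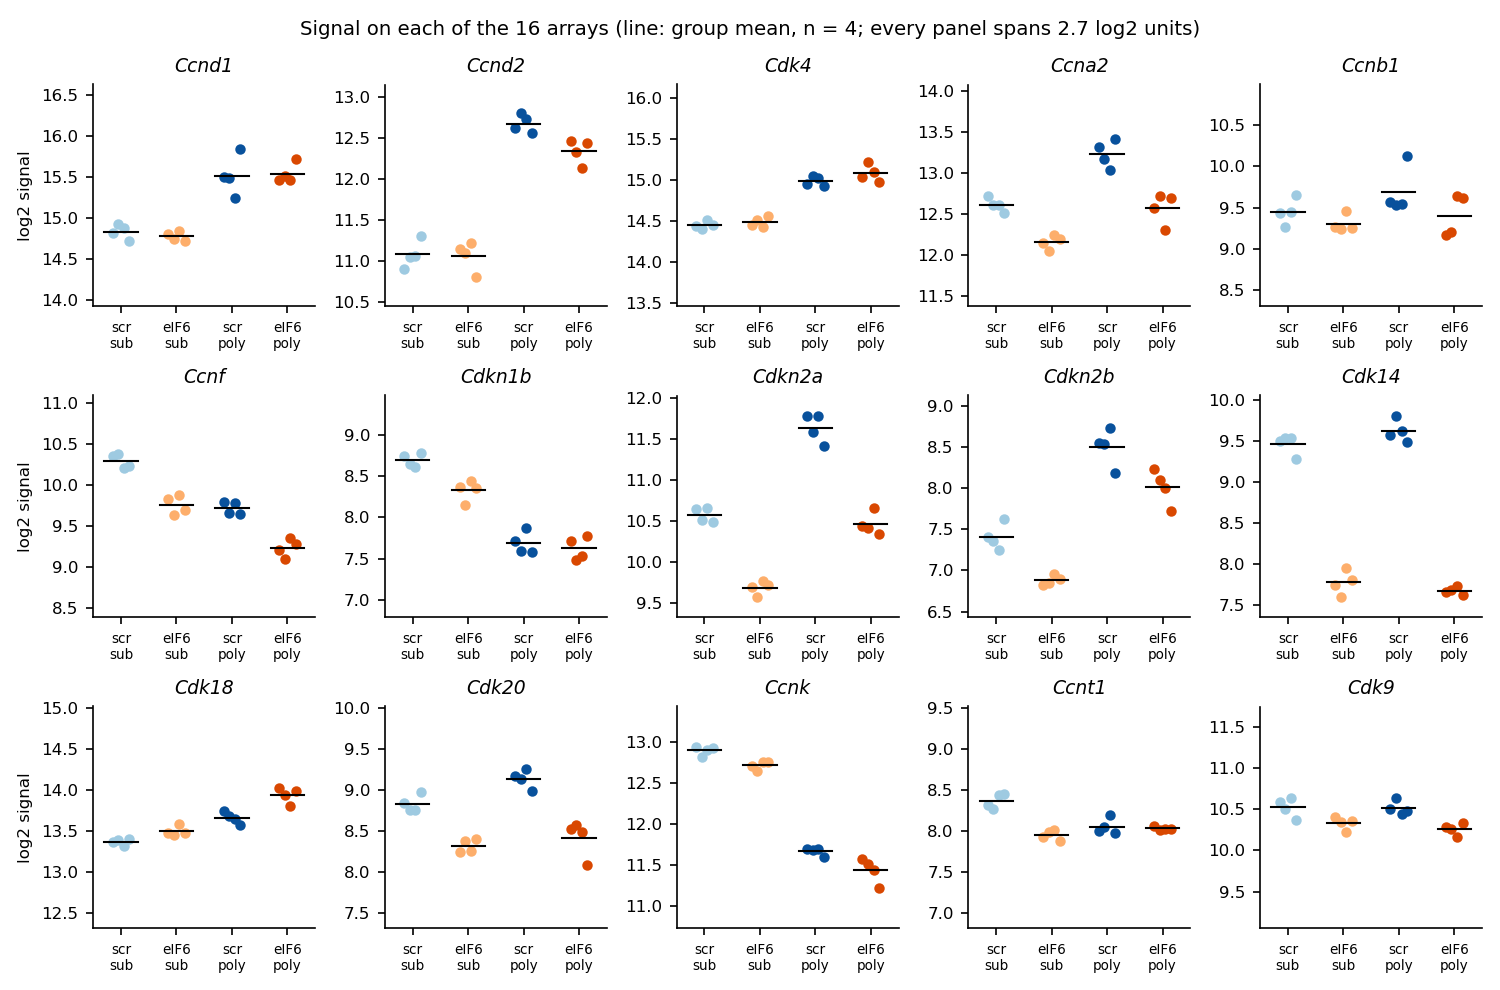
Log2 signal of 15 cyclins, CDKs and CDK inhibitors on each of the 16 arrays, by group; each point is an array, each line a group mean, and every panel spans the same number of log2 units. In Cdk14, Cdkn2a, Ccna2 and Ccnf the eIF6 shRNA arrays lie below the scramble arrays of the same fraction, whereas the points of Ccnd1 and Cdk4 are split by fraction only.

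The 8 other CDKs held both the largest fall and the only rise among the members. Cdk14 is a membrane-bound kinase that pairs with cyclin Y and phosphorylates a Wnt co-receptor in G2 and M. Its log2 signal on polysomes was 9.57, 9.81, 9.63 and 9.49 in scramble cells and 7.66, 7.69, 7.74 and 7.63 in eIF6 shRNA cells. In subpolysomal RNA it was 9.51, 9.53, 9.54 and 9.28 against 7.75, 7.60, 7.95 and 7.81. The shRNAs were thus more than a log2 unit apart on every array. The fall was 1.94 on polysomes (log2 change -1.94, SE 0.094, 3.85-fold lower, adjusted p = 2.15e-09) and 1.68 below them (log2 change -1.68, 3.21-fold lower, adjusted p = 1.49e-08). Its 2 kept probes, on chromosome 5 of mm9 at 4805854 to 4805913 and 4803733 to 4803792 on the minus strand, gave -1.97 and -1.92 on polysomes. This call held in all 34 alternative settings in both fractions, with polysomal values from -2.50 to -1.25.

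Cdk20, a kinase linked to primary cilia and the cell cycle, read 9.17, 9.14, 9.25 and 8.99 on the scramble and 8.53, 8.57, 8.49 and 8.09 on the eIF6 shRNA polysomal arrays. The subpolysomal values were 8.85, 8.76, 8.76 and 8.98 against 8.25, 8.39, 8.26 and 8.41, and the groups did not overlap in either fraction. It fell by 0.72 on polysomes (SE 0.11, 1.65-fold lower, adjusted p = 0.00014) and fell by 0.51 in subpolysomal RNA (adjusted p = 0.00263). Cdk18, a PCTAIRE-type kinase, went the other way. It read 13.74, 13.68, 13.65 and 13.56 in scramble and 14.01, 13.93, 13.80 and 13.98 in eIF6 shRNA polysomal RNA, without overlap, a rise of 0.28 (SE 0.070, 1.21-fold, adjusted p = 0.0103) that became -0.21 when arrays were scaled to the spike-in probes and was not called without the arrays numbered 1 or 2. Its subpolysomal arrays read 13.37, 13.39, 13.31 and 13.39 against 13.47, 13.44, 13.58 and 13.47, a difference of 0.13 (adjusted p = 0.223).

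The remaining kinases of this class were not called in either fraction. Cdk5, the kinase of neurons that p35 activates, differed by 0.21 on polysomes and 0.24 below them. Cdk10, the partner of cyclin M, differed by -0.01 and 0.13. Cdk16, which cyclin Y also binds, differed by 0.07 and -0.22. The less studied Cdk15 and Cdk17 had wide spreads, with polysomal differences of -0.19 (SE 0.45) and -0.50 (SE 0.32), sizes that these arrays could not separate from 0.

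The transcriptional members form a few complexes. Cdk9 with cyclin T1 or T2 releases paused polymerase, Cdk12 or Cdk13 with cyclin K acts during elongation, Cdk7 with cyclin H is part of a general initiation factor, and Cdk8 or Cdk19 with cyclin C belongs to Mediator. Of these 11 genes, Cdk9 and Ccnk fell on polysomes, and Ccnt1 and Cdk13 fell in subpolysomal RNA. Cdk9 read 10.50, 10.64, 10.44 and 10.49 in scramble and 10.28, 10.26, 10.16 and 10.34 in eIF6 shRNA polysomal RNA. Subpolysomal RNA gave 10.59, 10.51, 10.64 and 10.37 against 10.40, 10.35, 10.23 and 10.36. The groups were apart on polysomes only: the change there was -0.26 (SE 0.080, adjusted p = 0.0321), and the subpolysomal difference was -0.19 (adjusted p = 0.0968). The polysomal call held in 23 of 34 alternative settings. It was lost with the brightest of its probes alone (-0.22, adjusted p = 0.314).

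Cyclin K read 11.70, 11.69, 11.70 and 11.60 on the scramble and 11.58, 11.52, 11.44 and 11.23 on the eIF6 shRNA polysomal arrays. Its subpolysomal signal was 12.93, 12.82, 12.91 and 12.93 against 12.70, 12.65, 12.76 and 12.76. Although the arrays did not overlap in either fraction, the polysomal change was small at -0.23 (SE 0.079) with an adjusted p of 0.0482, and the subpolysomal difference of -0.18 was not called (adjusted p = 0.114). The polysomal call held in 11 of 34 alternative settings. Cdk13, one of its partners, changed by -0.53 in subpolysomal RNA (adjusted p = 0.0137), a call lost without the arrays numbered 1 or 2, and differed by -0.11 on polysomes. Cdk12 differed by -0.11 and -0.38 and was not called.

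Cyclin T1 was singled out after its values were seen. On polysomes it read 7.99, 8.05, 8.19 and 7.97 in scramble and 8.06, 8.01, 8.02 and 8.03 in eIF6 shRNA cells, and these values overlapped (difference -0.02). The subpolysomal arrays read 8.31, 8.26, 8.43 and 8.45 against 7.93, 7.98, 8.01 and 7.88, with no overlap and a change of -0.41 (SE 0.072, adjusted p = 0.000687). Its probes both lie on chromosome 15 and gave -0.26 and -0.57 there, and with the brighter probe alone the call was lost. Cyclin T2 differed by -0.06 on polysomes and -0.26 in subpolysomal RNA (adjusted p = 0.0532). Among Mediator and initiation members, Ccnc, Ccnh, Cdk8 and Cdk19 differed by -0.15 to 0.16 over both fractions and were not called. Cdk7 rested on 1 bright and 1 dim probe, and without the dim one its differences were -0.20 and 0.02, also not called.

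The change in translational efficiency was called for none of the 37 members. Among all genes, 1.11% were called lower and 0.403% higher in this comparison. At an unadjusted p under 0.05, 1 member was lower and 2 were higher. The median was 0.05 over the members and 0.017 over all genes. The member nearest to the threshold was Ccnt1, at 0.39 (SE 0.10, limma's unadjusted p = 0.00165, adjusted p = 0.0774). With its brighter probe alone this value was 0.08.

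The members that fell most on polysomes had efficiency changes that could not be told from 0 at this number of arrays. Cdkn2a had -0.29 with an interval of -0.59 to 0.01 (adjusted p = 0.416), and Cdk14 had -0.26 with an interval of -0.54 to 0.02 (adjusted p = 0.458). Ccnd2 had -0.32 (-0.67 to 0.02, adjusted p = 0.448). Cdkn1b, which was not called on polysomes, had 0.30 (adjusted p = 0.386), and its unadjusted interval of 0.01 to 0.59 left out 0. The brighter of its 2 probes alone gave 0.09 (adjusted p = 0.883). For cyclin D1 the interval was -0.25 to 0.41 around 0.08, and for Cdk4 it was -0.15 to 0.27 around 0.06. Ccna2 and Cdk20 both had -0.21 (adjusted p = 0.629 for each).

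Where a message lay on the gradient was described by the polysomal minus the subpolysomal log2 signal within each kind of cell. Quantile normalization gives both fractions the same distribution, so these values stand relative to all genes. In scramble cells 17 members were higher on polysomes and 6 were lower, and among all genes 31.7% were higher and 28.4% lower. The 17 include Cdkn1c, which was not well above background on any scramble subpolysomal array. In eIF6 shRNA cells 16 members were higher and 5 lower, and among all genes 32.1% were higher and 28.7% lower. The medians were 0.29 and 0.17 over the members and 0.035 and 0.034 over all genes. Scaling to the spike-in probes moved the median of all genes to 1.52 in scramble and 1.30 in eIF6 shRNA cells. It turned the 6 and 5 values called lower positive. The 23 and 21 called members stayed on their side of that median, which is no test of the calls, since all genes of an array shift alike.

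**Figure D3:**
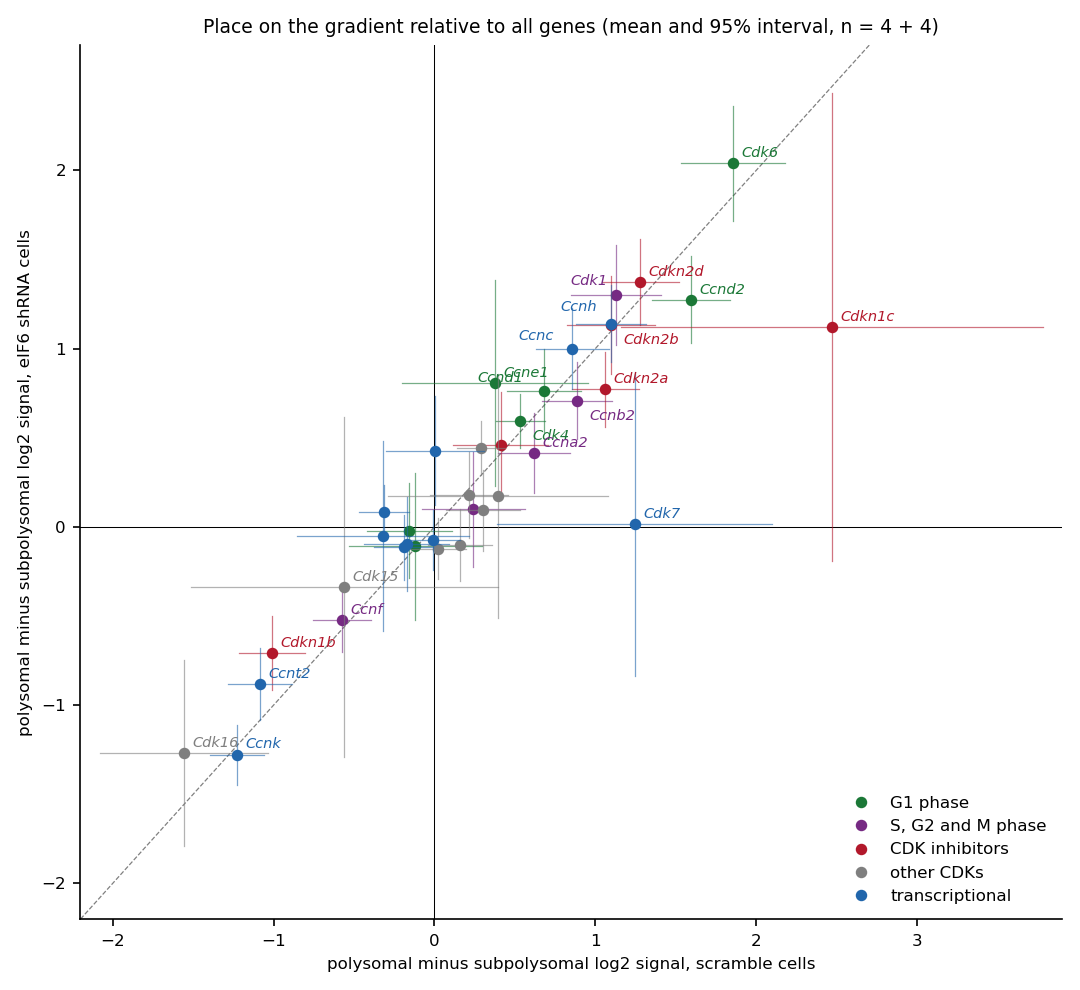
Polysomal minus subpolysomal log2 signal of each measured cyclin, CDK and CDK inhibitor in scramble cells (horizontal) and eIF6 shRNA cells (vertical), with 95% confidence intervals from 4 arrays a fraction and the class by colour. Values are relative to all genes, and those called below 0 turn positive when arrays are scaled to spike-in probes. Cdk6, at 1.86 and 2.04, lies toward the polysomal end and Ccnk, at -1.23 and -1.28, toward the subpolysomal end.

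The INK4 inhibitors lay toward polysomes. Cdkn2d stood at 1.28 in scramble and 1.37 in eIF6 shRNA cells, Cdkn2b at 1.09 and 1.13, and Cdkn2a at 1.06 and 0.77. Cdkn2c stood at 0.41 and 0.46, calls that held in 26 and 30 of 33 alternative settings. The scramble arrays of Cdkn2c overlapped between the fractions. Cdkn1b lay the other way at -1.01 and -0.71, with its 2 probes far apart in scramble cells (-0.12 and -1.90), and the brighter one alone was not called (-0.12 and -0.03). Cdkn1c was well above background on scramble polysomes but on no scramble subpolysomal array, with measured means of 4.60 and 2.13. The measured difference of Cdkn1c was 2.47 (adjusted p = 0.00281) and ran from 0.40 to 3.61 over the alternative settings. Its subpolysomal side was background signal, so that adjusted p does not test a difference between 2 detected levels. With the processing used here, Cdkn1c was at least 2.26-fold higher on polysomes. That bound, 1.18 in log2, was set against the lowest signal well above background on each array and was not itself tested. The lowest of the alternative settings, 0.40, lay under it.

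By the mean of their probes, the G1 genes that were called all lay toward polysomes. Cdk6 stood at 1.86 in scramble and 2.04 in eIF6 shRNA cells, Ccnd2 at 1.59 and 1.27, Ccnd1 at 0.68 and 0.76, and Cdk4 at 0.53 and 0.59. Ccne1 stood at 0.38 in scramble cells, not called, and at 0.81 in eIF6 shRNA cells, but its brighter probe was called in both, at 0.61 (adjusted p = 6.17e-05) and 0.57 (adjusted p = 0.000123). Ccnd3 and Cdk2 were called in neither. The brighter probe of Ccnd3 alone was called away from polysomes in scramble cells (-0.25, adjusted p = 0.0333) and not called in eIF6 shRNA cells (0.009, adjusted p = 0.944). Of the S, G2 and M genes, Ccnb2 (0.89 and 0.71) and Ccna2 (0.62 and 0.41) lay toward polysomes and Ccnf (-0.57 and -0.52) away from them. Cdk1 was called at 1.13 and 1.30 with the probe undetected in subpolysomal RNA averaged in, and the detected probe gave 0.60 (adjusted p = 0.0105) and 0.42 (adjusted p = 0.0575). Ccnb1 was not called, and its probes disagreed in sign, at -0.38, 0.58 and 0.53 in scramble cells.

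The transcriptional members were divided. Ccnh (1.10 and 1.14) and Ccnc (0.86 and 1.00) lay toward polysomes, and Ccnk (-1.23 and -1.28) and Ccnt2 (-1.08 and -0.88) away from them. Cdk7 was called in scramble cells (1.24, adjusted p = 0.0143) and not in eIF6 shRNA cells (0.02), but its bright probe, detected on all arrays, was called in both, at 0.44 and 0.23. Ccnt1 was lower on polysomes in scramble cells (-0.31, adjusted p = 0.00168) and had 0.08 in eIF6 shRNA cells (adjusted p = 0.343), and its brighter probe was called in neither (-0.22 and -0.13). The difference between these is the change in translational efficiency above, which did not pass the test. Cdk13 was called in eIF6 shRNA cells alone (0.43). Among the other CDKs, Cdk16 lay away from polysomes at -1.56 and -1.27, and Cdk18 was higher on polysomes at 0.29 and 0.44. Across the members 14 were higher in both kinds of cell and 5 lower in both, 12 were called in neither, and the other 6 were called in one only.

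Genes around the members were read from 3 lists. Among all genes tested, 10.7% were called lower and 11.1% higher on polysomes. In subpolysomal RNA the shares of all genes were 12.4% and 11.9%. Of 39 measured regulators of the cell cycle (of 41 listed), 13 fell on polysomes and none rose, with a median of -0.29, and 15 fell in subpolysomal RNA. At an adjusted p under 0.05, none of them changed in translational efficiency. The largest polysomal changes were those of E2f6 (-0.83, adjusted p = 0.000132), a repressor of the E2F family, E2f2 (-0.82, adjusted p = 8.93e-07), an activator of S phase genes, and Ube2c (-0.74, adjusted p = 9.2e-06), the ubiquitin-conjugating enzyme of the anaphase-promoting complex. Of 17 measured partners of the transcriptional CDKs (of 22 listed), 1 fell on polysomes, Hexim2 (-0.29, adjusted p = 0.0271), which holds Cdk9 inactive. In subpolysomal RNA 2 of them fell and 3 rose.

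The third list held 28 further gene names, of genes with a cyclin box or a tie to CDKs, and 26 of these names were measured. On polysomes 5 fell and 5 rose, with a median of 0.11, where 10.7% of all genes were called lower and 11.1% higher. The falls were led by Ccno (-1.61, adjusted p = 2.3e-07), a cyclin-like gene of multiciliated cells, Cdk5r1 (-0.99, adjusted p = 7.21e-07), the p35 activator of Cdk5, and Ccng2 (-0.50, adjusted p = 0.0139). The rises were led by Cables1 (0.99, adjusted p = 0.000156), which links CDKs to other kinases, Cdkl2 (0.61, adjusted p = 0.000985) and Ccng1 (0.37, adjusted p = 0.00441), a p53 target. In subpolysomal RNA 7 fell and 2 rose, where 12.4% of all genes were called lower and 11.9% higher. Cdk5 itself, as given above, was not called.

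**Figure D4:**
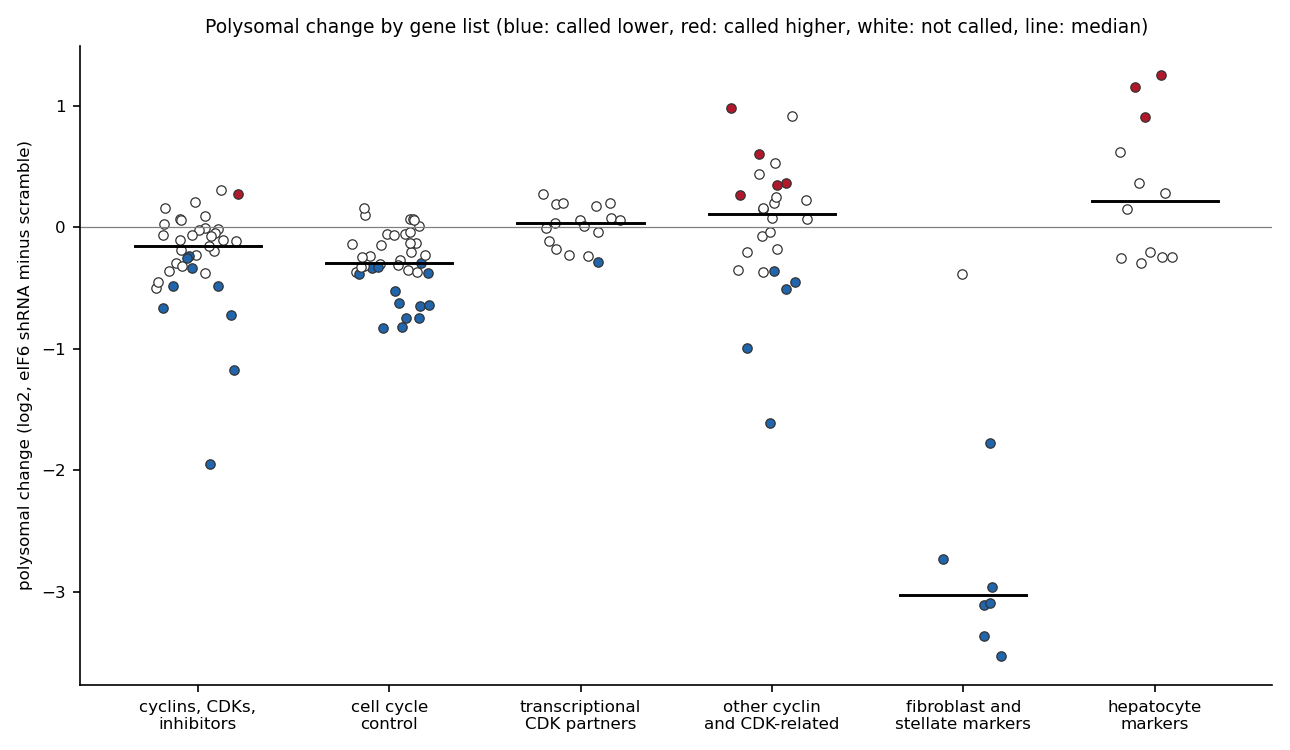
Polysomal change (eIF6 shRNA minus scramble, log2 units) of each measured gene among the cyclins, CDKs and inhibitors, in the 3 lists around them, and among fibroblast or stellate and hepatocyte markers; each point is a gene and each line a list's median. The median is -0.15 for the members, -0.29 for the cell cycle regulators and -3.03 for the fibroblast and stellate markers.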

How the data were processed

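Each of 16 RNA samples, 4 per group, was hybridized on a one-colour Agilent array. Spot by spot, the deposited files hold an intensity that the authors' scanner software had corrected for background, without normalization between arrays, and quality flags (other columns), from Feature Extraction (10.7.7.1 per the labels, 10.7.3.1 per the file headers). They also deposited a quantile-normalized table of log2 values, used as an alternative. Spots marked as uneven or outlying were left out. Probes well above background on 2 or more arrays of any group were kept (25260 of 39429). Log2 intensities were quantile normalized over all arrays and averaged per gene name. limma 3.58.1 in R 4.3.3 was fitted with 4 group means, all arrays sharing one spread, with Benjamini-Hochberg adjustment over 19365 genes and a threshold of 0.05. Intervals are 95% intervals of that fit. Precision is limited by the number of arrays. The procedure was tested on simulated data.

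The members, their classes and the lists around them were chosen with earlier results of these data known. Every member is named. Array values are printed for up to 2 called members per class with the largest polysomal decrease or increase (well above background on all arrays), and for Ccnd1, Cdk4, Cdkn1b, Ccnb1 and Cdk9 in any case. From each list, up to 3 called genes per direction are named. Other member values are printed where a class is described. Probe coordinates (mm9) are those of the files. Promoters are those of a RefSeq table (GRCm38.p6), whose coordinates were not mixed with mm9. Alternatives were other scalings, background corrections, filters, probe summaries, blocks for slide or replicate number, the authors' table, and arrays left out. Correlations of the deviations of same-numbered arrays ran from -0.211 to 0.413, the highest between the polysomal arrays numbered 4. Of 24 such pairs 3 were over 0.1. Between the 2 fractions of the same culture number they ran from -0.157 to 0.030. With the culture as a random block, the correlation within a culture was -0.041, so the numbers were not taken as pairs.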

Additional observations from a re-analysis of the deposited data

Results flagged for a closer look

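In each group of 4 arrays, the gap of the outermost array to its neighbour was set against the range of the group, and 14 of 148 groups of the members exceeded Dixon's 95% critical value. Chance passes about 1 in 20 groups. In 11 of the 14 the outermost array was numbered 4.

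Among the genes with printed array values, Ccnb1 had 1 high array in 2 groups: scramble polysomal replicate 4 (ratio of gap to range 0.930, 10.13 against 9.53 to 9.57) and eIF6 shRNA subpolysomal replicate 3 (0.876). Low arrays were scramble polysomal replicate 4 for Ccnk (0.865, 11.60 against 11.69 to 11.70), scramble subpolysomal replicate 4 for Cdk14 (0.869, 9.28 against 9.51 to 9.54) and eIF6 shRNA polysomal replicate 4 for Cdk20 (0.834, 8.09 against 8.49 to 8.57). Cdk1 was high on eIF6 shRNA polysomal replicate 4 (0.985, 5.01 against 4.55 to 4.56), and without that array its polysomal change passed the threshold. Cdk13 was high on scramble subpolysomal replicate 2 (0.880, 7.60 against 7.23 to 7.28).

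The largest distance was that of Cdk7 on eIF6 shRNA subpolysomal replicate 4 (0.934, 8.03 against 5.98 to 6.11). Cdk17 was low on scramble polysomal replicate 3 (0.831, 7.79 against 8.52 to 8.67) and scramble subpolysomal replicate 4 (0.839, 7.08 against 8.22 to 8.44). Low as well were Ccnc on scramble polysomal replicate 4 (0.852), Ccnh on scramble subpolysomal replicate 4 (0.851), Cdkn2c on scramble subpolysomal replicate 4 (0.845) and Cdk19 on eIF6 shRNA polysomal replicate 4 (0.846).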

How the results depend on the processing

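The counts in this section are of members only. The share of all genes called was not counted in these settings, so a count does not set the members apart from other genes. Translational efficiency was called for no member in any of the 34 settings. With the replicate block, 7 members were lower on polysomes (6 of the 9 remained; Ccnd2, Ccnk and Cdk9 were lost and Cdk1 was gained) and 11 in subpolysomal RNA (Ccnd3 was lost). Leaving out arrays gave 5 to 9 lower and 0 to 1 higher on polysomes, and 5 to 17 lower and 0 to 1 higher in subpolysomal RNA. The lowest polysomal count came without replicate 2 or replicate 3, and the subpolysomal count was 5 without replicate 1 and 6 without replicate 2. Without single arrays the counts were 6 to 9 and 10 to 14. Calls of Cdk14 in both fractions and of Cdkn2a on polysomes held in all settings, and those of Ccna2, Ccnf and Cdk20 on polysomes in all but spike-in scaling. Depth has no counterpart here. Dim probes limit Cdk1, Cdk7, Cdk12, Cdk15 and Cdkn1c.

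With spike-in scaling, 2 members were lower and 0 higher on polysomes and 1 lower in subpolysomal RNA, and on the gradient 0 were lower and 32 higher in scramble cells and 0 lower and 31 higher in eIF6 shRNA cells. With 75th percentile scaling 9 were lower on the gradient of eIF6 shRNA cells, where the median of all genes was -0.37, and Ccnt1 there became -0.24. Spike-in scaling turned the polysomal change of Cdk18 to -0.21. On the scramble gradient it gave Ccnd3 1.80, Ccnf 1.22, Ccnk 0.73, Ccnt1 1.29, Ccnt2 0.30, Cdk12 1.13, Cdk16 0.34, Cdk19 1.64, Cdk2 1.57, Cdk8 1.63, Cdk9 1.78 and Cdkn1b 0.57. On the eIF6 shRNA gradient it gave Ccnd3 1.71, Ccnf 1.02, Ccnk 0.43, Ccnt2 0.21, Cdk10 1.59, Cdk12 1.14, Cdk14 1.31, Cdk16 0.40, Cdk19 1.51, Cdk2 1.38, Cdk8 1.5, Cdk9 1.51 and Cdkn1b 0.59. The scaling itself moves all gradient values up with the median, by its construction.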
